A study of Mus musculus with 15 samples.

Results

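The genes described here encode proteins of the mitochondrial ribosome and carry mouse symbols that begin with Mrpl or Mrps followed by a digit. All 78 such genes in the deposited tables (49 Mrpl and 29 Mrps) reached at least 1 FPKM (fragments per kilobase of transcript, scaled to the size of the library) in at least 2 of 10 libraries, out of 24819 genes listed and 12249 that passed the same filter. They were measured in E14 mouse embryonic stem cells, a single cell line kept on gelatin in serum with leukemia inhibitory factor. The 4 knockdown groups had been transfected to deplete Rpl11, Rpl14, Rpl18 or Rpl23 by siRNA (siRpl11, siRpl14, siRpl18 and siRpl23), and the control group had a non-targeting siRNA (siNT), all delivered with the lipid reagent DharmaFECT. The titles give 48 h but the treatment protocol gives 3 days, and the files do not settle the time. The 5 groups had 3 libraries each, from a stranded kit for polyadenylated RNA: replicates 1 and 2 in one table and the third in another, separately normalized. Nothing in the labels ties replicates to different cultures, so that the p-values reflect the scatter of these libraries alone, which may be technical.

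The mitochondrial ribosome translates the few membrane proteins of the respiratory chain and ATP synthase that mitochondrial DNA encodes. All of its proteins are encoded in the nucleus, made on cytosolic ribosomes and imported, whereas its RNAs come from the mitochondrial genome. Some of its proteins descend from those of bacterial ribosomes, and others were added in the mitochondrial lineage. The siRNAs were directed at proteins of the large subunit of the cytosolic ribosome, none of which is part of the mitochondrial one. Mrpl symbols stand for the large mitochondrial subunit and Mrps symbols for the small, except that Mrps18a and Mrps30 sit in the large one and that Mrps36 is now placed in an enzyme complex of the citric acid cycle.

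The targeted mRNA remained at 24% of the siNT mean in siRpl11, 51.6% in siRpl14, 32.6% in siRpl18 and 36.3% in siRpl23 cells, and at 19.9% to 38.5% in the third libraries. All 8 embryonic stem cell markers were at 109.5 FPKM or more in every library, and 6 of 8 fibroblast or feeder markers stayed under 1 FPKM in every library. The summed stem cell markers ranged over 6503 to 7111 FPKM in siRpl11, 5269 to 6358 in siRpl14, 5389 to 6186 in siRpl18 and 5308 to 6353 in siRpl23 cells, against 7136 to 8173 in siNT cells. Dppa5a was the largest part of each sum. It had 3525 and 3834 FPKM in siRpl11 and 4048 and 4350 FPKM in siNT libraries of the first table. The sums hide markers that moved in opposite directions. In siRpl11 cells 3 of the 8 were called higher and 4 lower than in siNT cells (limma, adjusted p under 0.05). Nanog and Esrrb had log2 fold changes of -1.19 each, Sox2 of 0.31 and Utf1 of 0.39. In siRpl14, siRpl18 and siRpl23 cells 1 was called higher and 6 lower in each. The summed fibroblast markers, mostly Thy1, ranged over 4.18 to 6.90 FPKM in siRpl11, 8.93 to 11.1 in siRpl14, 7.77 to 11.5 in siRpl18 and 9.04 to 11.3 in siRpl23 cells, against 16.7 to 20.3 in siNT cells, and Lum, Dcn, Postn and Col3a1 were listed at 0 in siNT replicate 1. The part of either in the results below was not tested. Read depth relative to the first library of each table, estimated from the spacing of low FPKM values, ran between 0.698 and 1.40 in the first table and between 1.00 and 1.30 in the second, and the absolute depth is unknown.

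RefSeq (GRCm38.p6) gave a 300-base window, 250 bases before and 50 after the start, for 69 of the 78 members and for 9591 of the 12249 genes tested. Mrps26 is printed because, of the members named below for the size of their change or level, it alone had both an NRF1 and an ETS motif in its window, and Mrps18b, Mrps18a and Mrpl14 were added after their values were seen, as genes that moved strongly in every knockdown. Capitals mark the matches to the NRF1, ETS and YY1 motifs, on either strand. Mrpl24, which fell strongly in every knockdown, had no match to any of these motifs and is not printed.
Mrps26 (chr2:130563507-130563806, forward strand): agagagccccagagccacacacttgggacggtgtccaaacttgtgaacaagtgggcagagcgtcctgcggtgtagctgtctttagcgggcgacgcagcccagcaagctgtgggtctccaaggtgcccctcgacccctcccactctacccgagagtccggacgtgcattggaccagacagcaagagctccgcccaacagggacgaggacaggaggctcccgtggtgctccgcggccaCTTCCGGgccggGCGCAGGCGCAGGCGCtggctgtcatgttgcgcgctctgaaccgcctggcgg
Mrps18b (chr17:35916391-35916690, reverse strand): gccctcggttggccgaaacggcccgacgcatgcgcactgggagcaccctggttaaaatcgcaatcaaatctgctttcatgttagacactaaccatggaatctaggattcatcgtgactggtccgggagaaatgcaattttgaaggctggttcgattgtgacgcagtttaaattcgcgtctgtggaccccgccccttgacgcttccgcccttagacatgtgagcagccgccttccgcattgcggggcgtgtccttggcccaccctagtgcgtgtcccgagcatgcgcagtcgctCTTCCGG
Mrps18a (chr17:46110754-46111053, forward strand): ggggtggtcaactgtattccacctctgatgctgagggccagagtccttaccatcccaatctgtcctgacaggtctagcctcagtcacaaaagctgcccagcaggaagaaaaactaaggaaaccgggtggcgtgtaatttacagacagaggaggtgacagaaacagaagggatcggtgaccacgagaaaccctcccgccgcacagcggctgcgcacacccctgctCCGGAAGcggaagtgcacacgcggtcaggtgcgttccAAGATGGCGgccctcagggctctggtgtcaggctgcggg
Mrpl14 (chr17:45686099-45686398, forward strand): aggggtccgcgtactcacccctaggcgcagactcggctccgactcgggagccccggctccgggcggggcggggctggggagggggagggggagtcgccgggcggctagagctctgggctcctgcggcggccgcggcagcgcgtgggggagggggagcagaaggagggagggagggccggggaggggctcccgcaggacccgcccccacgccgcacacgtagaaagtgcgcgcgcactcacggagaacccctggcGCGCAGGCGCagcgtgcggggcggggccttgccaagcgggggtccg
In Mrps26, an ETS match lay 14 bases before the start, and a pair of NRF1 matches that overlap each other began 2 bases before the start and at base 5 after it. Mrps18a held an ETS match 26 bases before its start and a YY1 match at base 12 after it. Mrps18b had an ETS match at base 44 after its start, and Mrpl14 an NRF1 match at base 5. A match is a description of letters and not evidence of binding.

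NRF1, the ETS factor GABP and YY1 are transcription factors known for acting on nuclear genes of mitochondria. The NRF1 motif, GCGC and TGCGC with 1 base of any kind between them, searched on both strands, was in 13 member windows (18.8%), against 11.9% of the windows of all genes tested. The ETS motif CCGGAAG was in 26 member windows (37.7%), against 20.6% of all, and the YY1 motif AAGATGGCG in 8 (11.6%), against 3.77%. The E-box CACGTG, which Myc proteins bind, was in 5 member windows (7.25%), against 12.2% of all, and TATAAA, the TATA box, in 5 (7.25%), against 8.32%. Among members called in siRpl11 cells, the NRF1 motif was in 13.9% of 36 windows of those higher and 30% of 10 of those lower. The ETS motif was in 41.7% and 20%, and the YY1 motif in 19.4% and 10%. These shares are counts of letters, with no test between members and all genes or between the members higher and lower.

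**Figure D1:**
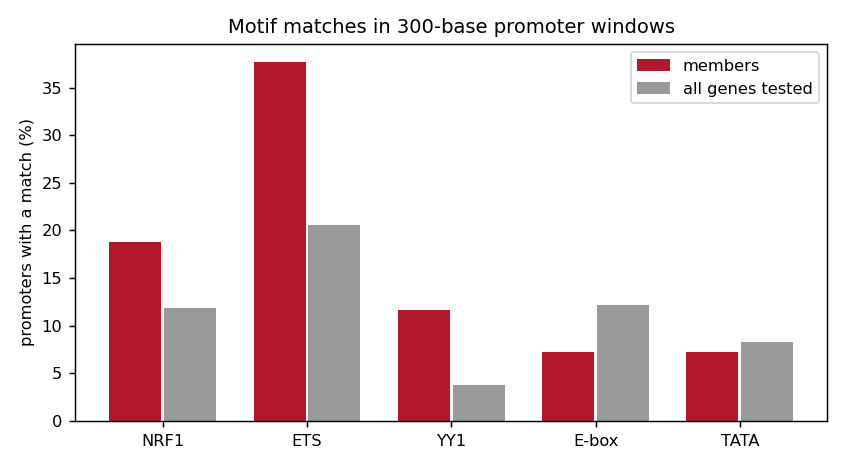
Share of promoter windows (percent, y axis) with at least 1 match to each motif on either strand (x axis), for 69 members (red) and 9591 genes tested (grey). The ETS bar stands at 37.7% for members and 20.6% for all genes, and the E-box bars at 7.25% and 12.2%.

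The members differed widely in level. Mean FPKM over the 10 libraries of the first table had a median of 48.0 over the 78 genes, with quartiles of 33.8 and 72.0. Mrpl52 (193 FPKM), Mrpl42 (182 FPKM) and Mrpl18 (128 FPKM), all of the large subunit, were highest, and Mrpl19 (7.35 FPKM), Mrpl48 (7.75 FPKM) and Mrpl41 (8.96 FPKM), also large-subunit proteins, were lowest. Replicates 1 and 2 lay close together, with a within-group SD on the log2(FPKM + 1) scale of 0.016 for Mrps17, a median of 0.068 and at most 0.14, for Mrpl58.

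As a family the members were moderately higher in every knockdown. The summed FPKM of the 49 Mrpl genes was 3085 ± 45.1 in siRpl11, 2831 ± 83.5 in siRpl14, 2879 ± 121 in siRpl18 and 2884 ± 47.7 in siRpl23 cells, against 2654 ± 75.4 in siNT cells (SD, n = 2 each). That is 116% of siNT in siRpl11, 107% in siRpl14, 108% in siRpl18 and 109% in siRpl23 cells, and 117%, 112%, 108% and 110.1% in the third libraries. For the 29 Mrps genes the sums were 1496 ± 27.9 FPKM in siRpl11, 1457 ± 45.1 in siRpl14, 1492 ± 45.3 in siRpl18 and 1461 ± 38.4 in siRpl23 cells, against 1327 ± 58.0 FPKM in siNT cells (SD, n = 2 each). Every knockdown library exceeded both siNT libraries in either sum, also with median-ratio scaling. In bulk RNA, a change in the share of cells of some kind and a change in RNA per cell cannot be told apart, and FPKM is a share of each library's fragments.

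Gene by gene, each knockdown was set against siNT to ask which mitochondrial ribosomal mRNAs differ once a cytosolic ribosomal protein is reduced. Genes were called with limma at a Benjamini-Hochberg adjusted p under 0.05 over all 12249 genes. The log2(FPKM + 1) scale was used, which understates changes, slightly at the levels of members and more for genes near 1 FPKM. In siRpl11 cells 42 members rose and 11 fell, where 27.3% and 43.6% of all genes tested were called higher and lower. In siRpl14 cells 26 rose and 6 fell (33.3% and 29.5% of all genes), in siRpl18 cells 33 rose and 9 fell (32.8% and 34.7%), and in siRpl23 cells 30 rose and 7 fell (34.9% and 30.8%). The share of members that rose was 53.8% in siRpl11, 33.3% in siRpl14, 42.3% in siRpl18 and 38.5% in siRpl23 cells, so that in siRpl14 it was that of all genes. The share that fell was below that of all genes in each, at 14.1% in siRpl11, 7.69% in siRpl14, 11.5% in siRpl18 and 8.97% in siRpl23 cells. The 4 comparisons share the siNT libraries, so their lists are not independent of each other.

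The changes were small. The median log2 fold change of the 78 members was 0.17 in siRpl11 cells, against -0.11 for all genes tested, 0.09 against 0.02 in siRpl14, 0.10 against -0.02 in siRpl18 and 0.09 against 0.02 in siRpl23 cells. Member values ran between -0.70 and 0.76 in siRpl11, -0.53 and 0.62 in siRpl14, -0.63 and 0.66 in siRpl18, and -0.54 and 0.60 in siRpl23 cells. No member reached a 2-fold change in any of these, whereas 7.27%, 6.11%, 7.71% and 7.11% of all genes tested did. On the linear scale the members ran between 61.1% (Mrpl24) and 169.9% (Mrps18b) of siNT in siRpl11 cells, between 68.6% (Mrpl14) and 156% (Mrps34) in siRpl14 cells, between 64.0% (Mrpl24) and 159% (Mrps18b) in siRpl18 cells, and between 68.2% (Mrpl14) and 153% (Mrps34) in siRpl23 cells.

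How libraries are scaled to each other bears on these counts. The all-gene median in siRpl11 cells moved up by 0.12 with quantile normalization and by 0.15 with median-ratio scaling. Relative to the all-gene median, the member median in siRpl11 cells was 0.28 higher as reported, 0.13 higher with quantile normalization and 0.31 higher with median-ratio scaling. With quantile normalization, 37 members rose and 10 fell in siRpl11, 24 and 11 in siRpl14, 28 and 14 in siRpl18, and 23 and 14 in siRpl23 cells. With median-ratio scaling, 61 members rose and 5 fell in siRpl11, 26 and 6 in siRpl14, 35 and 8 in siRpl18, and 27 and 8 in siRpl23 cells. Of all genes called in siRpl11 cells, 38.5% were higher as reported, 50.9% with quantile normalization and 54.7% with median-ratio scaling. In every knockdown and under each of these scalings, more members rose than fell and their median stayed above 0. Of 12249 genes, quantile normalization called 3617 higher and 4190 lower in siRpl14, 3844 and 4525 in siRpl18, and 3795 and 4356 in siRpl23. Median-ratio scaling called 3948 and 3744 in siRpl14, 4302 and 4024 in siRpl18, and 4167 and 3887 in siRpl23. With both, the share of the 78 members that rose was near that of all genes in siRpl14 and siRpl23 cells. In siRpl18 cells it was above that of all genes with median-ratio scaling, and only a little above it with quantile normalization. The share that fell was below that of all genes in each.

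**Figure D2:**
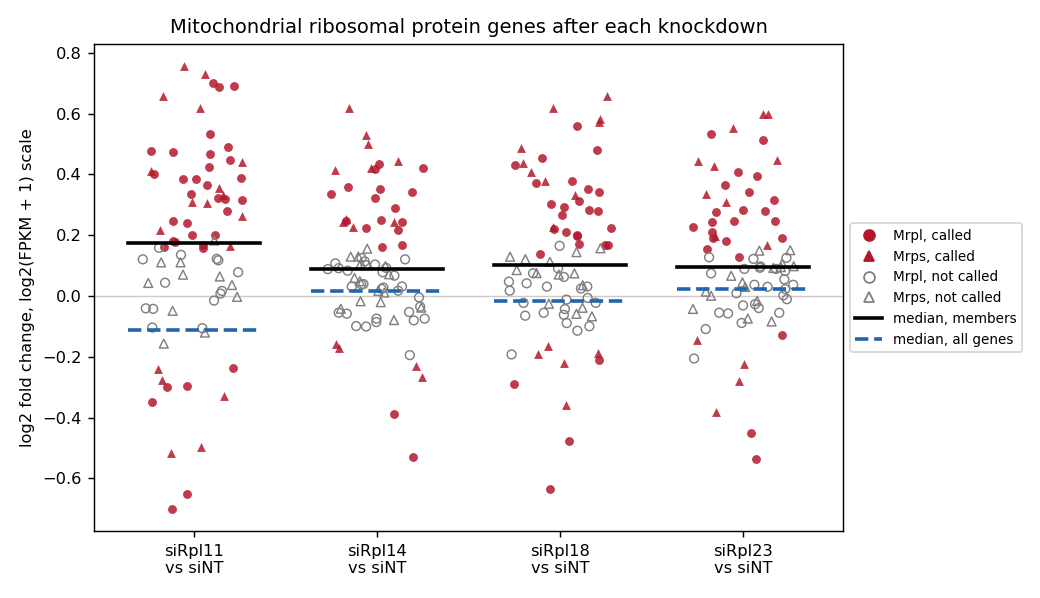
Log2 fold change on the log2(FPKM + 1) scale (y axis) of the 78 members in each knockdown against siNT (x axis), from replicates 1 and 2; circles are Mrpl and triangles Mrps genes, filled where called, with bars at the median of the members (black) and of all genes tested (blue, dashed). The black bar lies at 0.17 in siRpl11 and at 0.09 to 0.10 in the other knockdowns, above the blue bar in each.

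By subunit, 29 of 49 Mrpl genes rose and 6 fell in siRpl11 cells, 16 rose and 2 fell in siRpl14, 23 rose and 4 fell in siRpl18, and 20 rose and 3 fell in siRpl23 cells. Of 29 Mrps genes, 13 rose and 5 fell in siRpl11, and 10 rose in each other knockdown, with 4, 5 and 4 that fell in siRpl14, siRpl18 and siRpl23 cells. The 10 that rose are 34.5% of the Mrps genes, near the share of all genes called higher in siRpl14 (33.3%), siRpl18 (32.8%) and siRpl23 cells (34.9%), and the 16 Mrpl genes in siRpl14 cells are 32.7%. By origin, the 31 members found only in mitochondrial ribosomes had 17 that rose and 3 that fell in siRpl11 cells. In siRpl14, siRpl18 and siRpl23 cells 9, 14 and 12 of the 31 rose and 0 were called lower by limma (1, 0 and 1 at an unadjusted p under 0.05). The shares that rose were 29.0%, 45.2% and 38.7%, so that those in siRpl14 and siRpl23 cells were near the shares of all genes. The 46 members with a bacterial counterpart had 25 that rose and 7 that fell in siRpl11, 17 and 5 in siRpl14, 19 and 8 in siRpl18, and 18 and 6 in siRpl23 cells. Of these 46, 54.3%, 37.0%, 41.3% and 39.1% rose in the 4 knockdowns, those in siRpl14 and siRpl23 cells being near the shares of all genes. No difference between these classes was tested, and Mrps18a and Mrps18b, relatives of a bacterial protein that occupy other positions, are counted as mitochondrial additions.

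The third libraries, which entered no test, mostly moved with the called members. Of the members called higher, 38 of 42 were also higher than siNT replicate 3 in siRpl11, 26 of 26 in siRpl14, 29 of 33 in siRpl18 and 25 of 30 in siRpl23 cells (90.9%, 93.3%, 90.4% and 89.0% of all genes called higher). Of those called lower, 11 of 11, 4 of 6, 8 of 9 and 7 of 7 were also lower in siRpl11, siRpl14, siRpl18 and siRpl23 cells (92.4%, 88.4%, 91.0% and 88.8% of all genes called lower). Mrpl17 and Mrpl34 went the other way in the third libraries of siRpl11, siRpl18 and siRpl23. Mrpl20 and Mrpl33 did so in siRpl11, Mrpl44 and Mrpl51 in siRpl18 and siRpl23, Mrps5 in siRpl14 and siRpl18, Mrps36 in siRpl14 and Mrps26 in siRpl23. The member medians over the third libraries were 0.14, 0.12, 0.07 and 0.05 in siRpl11, siRpl14, siRpl18 and siRpl23 cells, against -0.09, 0.04, -0.02 and 0.01 for all genes tested.

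**Figure D3:**
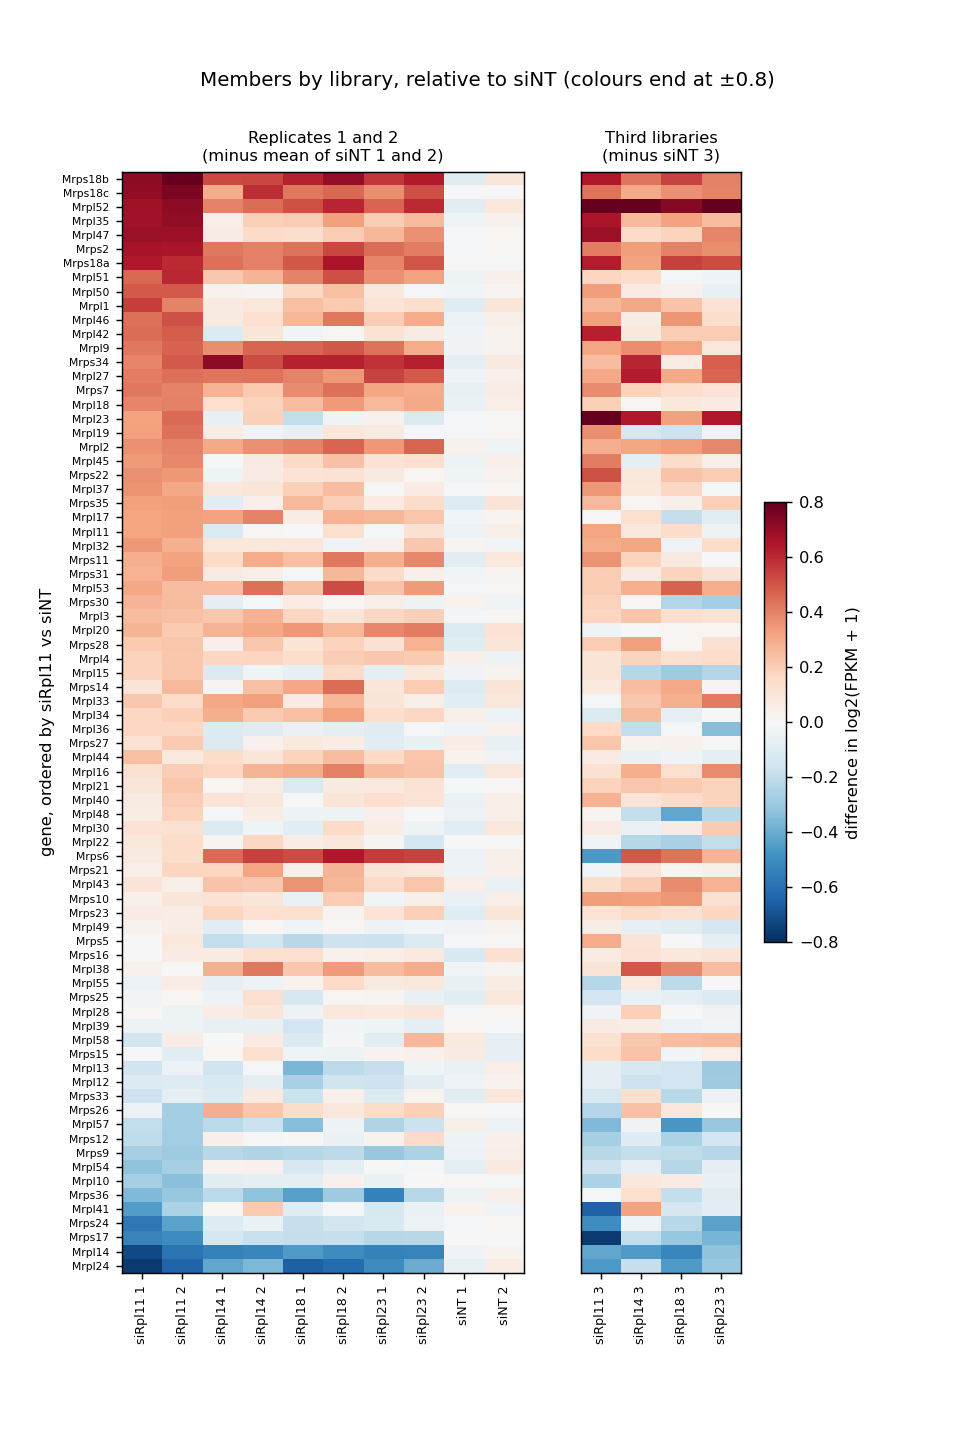
Difference in log2(FPKM + 1) of each member (rows, ordered by the fold change in siRpl11) from the mean of siNT replicates 1 and 2 (left) or from siNT replicate 3 (right), by library (columns); red is higher, blue lower, and colours end at a difference of 0.8. Mrps18b and Mrpl52 near the top are red and Mrpl14 and Mrpl24 at the bottom blue in every knockdown library. Mrpl35 and Mrpl47, also near the top, are pale in siRpl14 replicate 1. Mrps6 is red in the siRpl14, siRpl18 and siRpl23 libraries and pale or blue in those of siRpl11.

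Among the members that rose most were the 3 paralogues descended from one bacterial small-subunit protein, Mrps18a, Mrps18b and Mrps18c. Mrps18b had 84.99 and 90.2 FPKM in siRpl11 cells, 74.6 and 74.9 in siRpl14 cells, 79.2 and 84.4 in siRpl18 cells and 76.5 and 80.4 in siRpl23 cells, against 48.0 and 55.2 in siNT cells. The third libraries gave 124, 107, 116 and 105 FPKM in those knockdowns, against 79.4 in siNT. Every knockdown library was above its siNT libraries, and the log2 fold change was 0.76 ± 0.06 in siRpl11 (adjusted p = 3.63e-06), 0.53 ± 0.06 in siRpl14 (5.72e-05), 0.66 ± 0.06 in siRpl18 (1.02e-05) and 0.60 ± 0.06 in siRpl23 cells (2.16e-05; ± SE). Mrps18c had 103 and 107 FPKM in siRpl11 cells, 77.3 and 95.1 in siRpl14 cells, 84.3 and 86.6 in siRpl18 cells and 81.8 and 90.2 in siRpl23 cells, against 63.0 and 62.6 in siNT cells. Its log2 fold changes were 0.73 in siRpl11, 0.44 in siRpl14, 0.44 in siRpl18 and 0.45 in siRpl23 cells, and all 4 were called, with an adjusted p of 2.47e-05 in siRpl11. It was also higher in siRpl11 than in the other knockdowns, by 0.29 ± 0.07 (adjusted p = 0.0037). Mrps18a had 65.9 and 64.1 FPKM in siRpl11 cells, 57.3 and 55.8 in siRpl14 cells, 59.5 and 66.5 in siRpl18 cells and 55.4 and 59.9 in siRpl23 cells, against 42.3 and 41.6 in siNT cells. The groups did not overlap with siNT, and its log2 fold changes were 0.62 in siRpl11, 0.42 in siRpl14, 0.57 in siRpl18 and 0.45 in siRpl23 cells (adjusted p = 1.17e-05 in siRpl18). Mrps18b shared 30.9% of its 50-base stretches with another annotated gene and Mrps18c 17.6% with several, so part of their reads may not be unique to them. Gm43511 also overlaps an exon of Mrps18c on the same strand, and its part was not tested.

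Mrpl52, a mitochondria-specific protein of the large subunit and the member with the highest mean level, rose in every knockdown. Mrpl52 had 225 and 231 FPKM in siRpl11 cells, 184 and 191 in siRpl14 cells, 200 and 214 in siRpl18 cells and 194 and 212 in siRpl23 cells, against 132 and 148 in siNT cells. The third libraries had 331, 322, 294 and 321 FPKM in the knockdowns, against 176 in siNT. Knockdown and siNT libraries were apart in both tables, and the log2 fold change was 0.70 ± 0.06 in siRpl11 (adjusted p = 5.91e-06), 0.42 in siRpl14, 0.56 in siRpl18 and 0.53 in siRpl23 cells.

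Mrps34, a mitochondria-specific protein of the small subunit, was the member with the largest rise in siRpl14 cells. Mrps34 had 30.5 and 32.6 FPKM in siRpl11 cells, 38.4 and 33.4 in siRpl14 cells, 35.8 and 35.8 in siRpl18 cells and 34.7 and 35.8 in siRpl23 cells, against 21.8 and 24.2 in siNT cells. All knockdown libraries were above both siNT libraries, with log2 fold changes of 0.44 in siRpl11, 0.62 in siRpl14, 0.62 in siRpl18 and 0.60 in siRpl23 cells (adjusted p = 3.57e-05 in siRpl14). The third libraries gave 52.2, 67.5, 45.8 and 61.5 FPKM in the knockdowns and 44.0 in siNT, so that siRpl18 was close to siNT there. Nme3, a nucleoside diphosphate kinase gene that overlaps Mrps34 on the same strand, had log2 fold changes of 0.01 in siRpl11, 0.78 in siRpl14, 0.57 in siRpl18 and 0.73 in siRpl23 cells. Its part in the Mrps34 values was not tested.

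Mrpl27, whose bacterial counterpart reaches towards the peptidyl transferase centre, rose in all 4. Mrpl27 had 43.6 and 44.4 FPKM in siRpl11 cells, 44.1 and 44.3 in siRpl14 cells, 43.0 and 41.7 in siRpl18 cells and 47.7 and 46.0 in siRpl23 cells, against 31.6 and 33.4 in siNT cells. The log2 fold changes were 0.42 in siRpl11, 0.43 in siRpl14, 0.37 in siRpl18 and 0.51 in siRpl23 cells (adjusted p = 3.71e-06 in siRpl23), and 32.4% of its 50-base stretches were shared with other genes.

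The members that fell were few, and Mrpl24 and Mrpl14, both large-subunit proteins with bacterial counterparts, fell most. Mrpl24 had 59.8 and 65.2 FPKM in siRpl11 cells, 76.4 and 79.4 in siRpl14 cells, 64.8 and 66.4 in siRpl18 cells and 71.8 and 77.4 in siRpl23 cells, against 98.0 and 107 in siNT cells. The third libraries had 46.3, 56.3, 46.6 and 51.8 FPKM in the knockdowns and 64.1 in siNT. Each knockdown library was below siNT in its table, with a log2 fold change of -0.70 ± 0.06 in siRpl11 (adjusted p = 3.35e-06), -0.39 ± 0.06 in siRpl14 (0.000254), -0.63 ± 0.06 in siRpl18 (7.22e-06) and -0.45 ± 0.06 in siRpl23 cells (8.5e-05). Mrpl14 had 24.6 and 27.2 FPKM in siRpl11 cells, 28.03 and 28.4 in siRpl14 cells, 29.8 and 28.7 in siRpl18 cells and 27.98 and 28.2 in siRpl23 cells, against 40.4 and 42.0 in siNT cells. The third libraries had 33.3, 32.5, 30.8 and 35.6 FPKM in the knockdowns and 44.8 in siNT. The ranges were again apart, and the log2 fold changes were -0.65 ± 0.05 (2.27e-06), -0.53 ± 0.05 (1.27e-05), -0.48 ± 0.05 (2.08e-05) and -0.54 ± 0.05 (1e-05) in siRpl11, siRpl14, siRpl18 and siRpl23 cells.

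Smaller decreases were shared by Mrps17, Mrps36 and Mrps9. Mrps17 had 38.8 and 39.6 FPKM in siRpl11 cells, 51.2 and 49.8 in siRpl14 cells, 49.4 and 49.5 in siRpl18 cells and 48.1 and 48.3 in siRpl23 cells, against 56.3 and 56.7 in siNT cells. This small-subunit protein of bacterial descent had log2 fold changes of -0.52 in siRpl11, -0.16 in siRpl14, -0.19 in siRpl18 and -0.22 in siRpl23 cells, all called, with siRpl11 lowest (adjusted p = 1.1e-06). Mrps9, another of bacterial descent, was called in all 4, with log2 fold changes of -0.28 in siRpl11, -0.23 in siRpl14, -0.22 in siRpl18 and -0.28 in siRpl23 cells. Mrps36 had log2 fold changes of -0.33 in siRpl11, -0.27 in siRpl14, -0.36 in siRpl18 and -0.38 in siRpl23 cells, also called in all 4. It shared 36.2% of its 50-base stretches with other genes, among them the pseudogenes Mrps36-ps1 and Mrps36-ps2. Its calls were less stable: that in siRpl14 cells (adjusted p = 0.032) was lost without siNT replicate 1, siNT replicate 2 or siRpl14 replicate 2, without the filter and with all 15 libraries, the third libraries went the other way by 0.13, and that in siRpl18 cells was lost without siRpl18 replicate 1. Mrps5, a small-subunit protein with a bacterial counterpart, had log2 fold changes of 0.04 in siRpl11, -0.17 in siRpl14, -0.19 in siRpl18 and -0.14 in siRpl23 cells. It was called lower in siRpl14, siRpl18 and siRpl23 cells, and with all 15 libraries the siRpl14 value was -0.08 (adjusted p = 0.218). It shared 12.4% of its 50-base stretches with Gm13328. Mrpl13, of the large subunit, fell by 0.29 on the log2 scale in siRpl18 cells (adjusted p = 0.00686), a call lost without siNT replicate 2 or siRpl18 replicate 1.

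**Figure D4:**
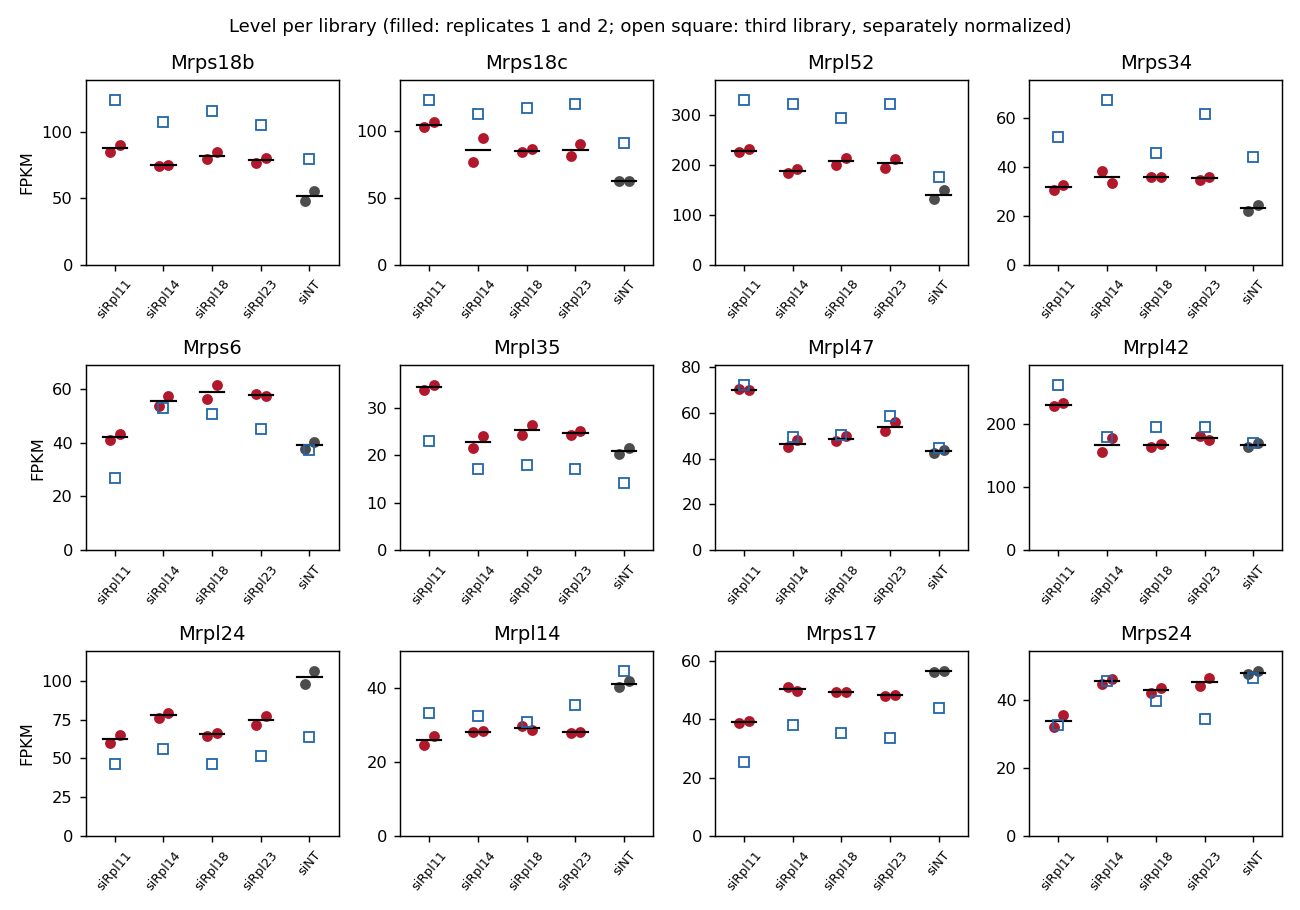
FPKM (y axis, linear, starting at 0) of 12 members by group (x axis); filled circles are replicates 1 and 2 with a bar at their mean, and open squares the third library, which was normalized separately. Mrps18b, Mrps18c, Mrpl52 and Mrps34 lie above siNT and Mrpl24, Mrpl14 and Mrps17 below it in every knockdown, while Mrpl35, Mrpl47 and Mrpl42 stand out in siRpl11 and Mrps6 is lower there than in the other knockdowns.

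siRpl11 was set against the mean of the other 3 knockdowns to ask where loss of Rpl11 differed from loss of another large-subunit protein. The targeted mRNA was left at 24% in siRpl11, against 51.6% in siRpl14, 32.6% in siRpl18 and 36.3% in siRpl23 cells. Which protein was lost and how far its mRNA was depleted therefore cannot be told apart in this contrast. In this contrast 27 members were higher and 13 lower, where 18.4% and 44.2% of all genes tested were called higher and lower, and the median was 0.03 over the members and -0.12 over all genes. Scaling moved the all-gene median here by 0.16 with quantile normalization and by 0.15 with median-ratio scaling. With quantile normalization 31 members were higher and 9 lower, and with median-ratio scaling 54 and 4. Of all 12249 genes, 4267 were called higher and 3242 lower with quantile normalization, and 4379 and 3514 with median-ratio scaling. Relative to the all-gene median, the member median was 0.15 higher as reported, 0.04 with quantile normalization and 0.18 with median-ratio scaling. The excess of members over all genes in this contrast thus depended on the scaling. The share of called genes that were higher, over all genes, was 29.3% as reported, 56.8% and 55.5%. In the third libraries 27 of the 27 and 12 of the 13 had the same sign (96.7% of all genes called in either direction), Mrpl14 being the exception at 0.01. No member differed by 2-fold, against 4.29% of all genes. Of the 31 mitochondria-specific members 14 were higher and 6 lower, and of the 46 with bacterial counterparts 13 and 7.

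Mrpl47 and Mrpl35, large-subunit proteins with bacterial counterparts, stood highest in this contrast. Mrpl47 had 70.2 and 70.0 FPKM in siRpl11 cells, 45.1 and 48.0 in siRpl14 cells, 47.7 and 49.7 in siRpl18 cells and 52.0 and 56.0 in siRpl23 cells, against 42.6 and 43.7 in siNT cells. Both siRpl11 libraries exceeded every other library of the first table, and the difference from the mean of the other knockdowns was 0.49 ± 0.04 (adjusted p = 3.22e-06), with 0.45 in the third libraries. Mrpl35 had 33.8 and 34.8 FPKM in siRpl11 cells, 21.6 and 23.99 in siRpl14 cells, 24.2 and 26.4 in siRpl18 cells and 24.2 and 25.05 in siRpl23 cells, against 20.3 and 21.4 in siNT cells. Here too both siRpl11 libraries were above all others, with a difference of 0.49 ± 0.05 (adjusted p = 1.72e-05; 0.38 in the third libraries). Against siNT the log2 fold change of Mrpl47 was 0.69 ± 0.05 (adjusted p = 1.07e-06) in siRpl11 and 0.11 (0.0799) in siRpl14 cells, and that of Mrpl35 was 0.69 ± 0.06 (4.88e-06) and 0.12 (0.113).

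Mrpl42 and Mrpl50, mitochondria-specific proteins of the large subunit, followed. Mrpl42 had 229 and 235 FPKM in siRpl11 cells, 155 and 179 in siRpl14 cells, 165 and 169 in siRpl18 cells and 181 and 175 in siRpl23 cells, against 164 and 171 in siNT cells. It shared 18.8% of its 50-base stretches with Gm6419. The siRpl11 libraries were far above siNT, those of siRpl23 just above it, and those of siRpl14 and siRpl18 overlapped it; the difference of siRpl11 from the other knockdowns was 0.44 ± 0.05 (adjusted p = 3.04e-05). For Mrpl50 the difference was 0.40 ± 0.04 (adjusted p = 8e-06), with 58.1 and 58.1 FPKM in siRpl11 and 40.4 and 41.7 FPKM in siNT cells. Mrpl23, whose bacterial counterpart lies at the exit of the peptide tunnel, was 0.42 higher (adjusted p = 0.000566), with 45.9 and 50.4 FPKM in siRpl11 and 36.3 and 36.7 FPKM in siNT cells. It shared 66.7% of its 50-base stretches with other genes, among them the pseudogene Mrpl23-ps1, and the third libraries differed from siNT by 0.89, 0.64, 0.33 and 0.64 in the 4 knockdowns, so that its values are uncertain.

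On the lower side, Mrps6, a small-subunit protein of bacterial descent, differed most. Mrps6 had 41.1 and 43.3 FPKM in siRpl11 cells, 53.7 and 57.4 in siRpl14 cells, 56.3 and 61.4 in siRpl18 cells and 58.0 and 57.3 in siRpl23 cells, against 37.8 and 40.2 in siNT cells. It rose in siRpl14 (0.50), siRpl18 (0.58) and siRpl23 (0.55) cells, while in siRpl11 cells the log2 fold change was 0.11 (adjusted p = 0.101) and that of the third library -0.46. The difference of siRpl11 from the other knockdowns was -0.43 ± 0.05 (adjusted p = 1.96e-05), with -0.86 in the third libraries. Mrps6 shared 32.2% of its 50-base stretches with other genes, among them Slc5a3, an inositol transporter gene on the same strand, whose own log2 fold changes were -0.11 in siRpl11, -0.01 in siRpl14, 0.24 in siRpl18 and 0.24 in siRpl23 cells, and its part was not tested.

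Mrps24, Mrpl41, Mrps26 and Mrps17 were also lower in siRpl11 cells than in the other knockdowns. Mrps24 had 32.0 and 35.4 FPKM in siRpl11 cells, 44.5 and 46.2 in siRpl14 cells, 42.1 and 43.3 in siRpl18 cells and 44.1 and 46.3 in siRpl23 cells, against 47.4 and 48.5 in siNT cells. Both siRpl11 libraries were below all others, and the difference from the other knockdowns was -0.39 ± 0.04 (adjusted p = 3e-05). Urgcp, which overlaps Mrps24 on the same strand, had log2 fold changes of 0.05 in siRpl11, 0.30 in siRpl14, 0.28 in siRpl18 and 0.26 in siRpl23 cells, and its part was not tested. Mrps17, with its values above, differed by -0.33 ± 0.03 (adjusted p = 7.65e-06). Mrps26 had 28.1 and 23.9 FPKM in siRpl11 cells, 35.6 and 33.9 in siRpl14 cells, 32.2 and 31.0 in siRpl18 cells and 32.2 and 33.2 in siRpl23 cells, against 29.1 and 28.8 in siNT cells. Mrps26, a mitochondria-specific protein of the small subunit, was -0.16 against siNT (adjusted p = 0.0579), and its difference from the other knockdowns was -0.34 ± 0.05 (adjusted p = 0.000388). Mrpl41, a mitochondria-specific protein of the large subunit, had 6.66 and 7.76 FPKM in siRpl11, 9.55 and 11.1 in siRpl14, 8.77 and 9.31 in siRpl18 and 8.55 and 9.07 in siRpl23 cells, against 9.65 and 9.23 in siNT cells. Its decrease was -0.35 ± 0.08 against siNT (adjusted p = 0.00398) and -0.34 ± 0.07 against the other knockdowns (0.00172), and both calls were lost with quantile normalization and with median-ratio scaling. Mrpl41 shared 13.8% of its 50-base stretches with Gm6434.

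**Figure D5:**
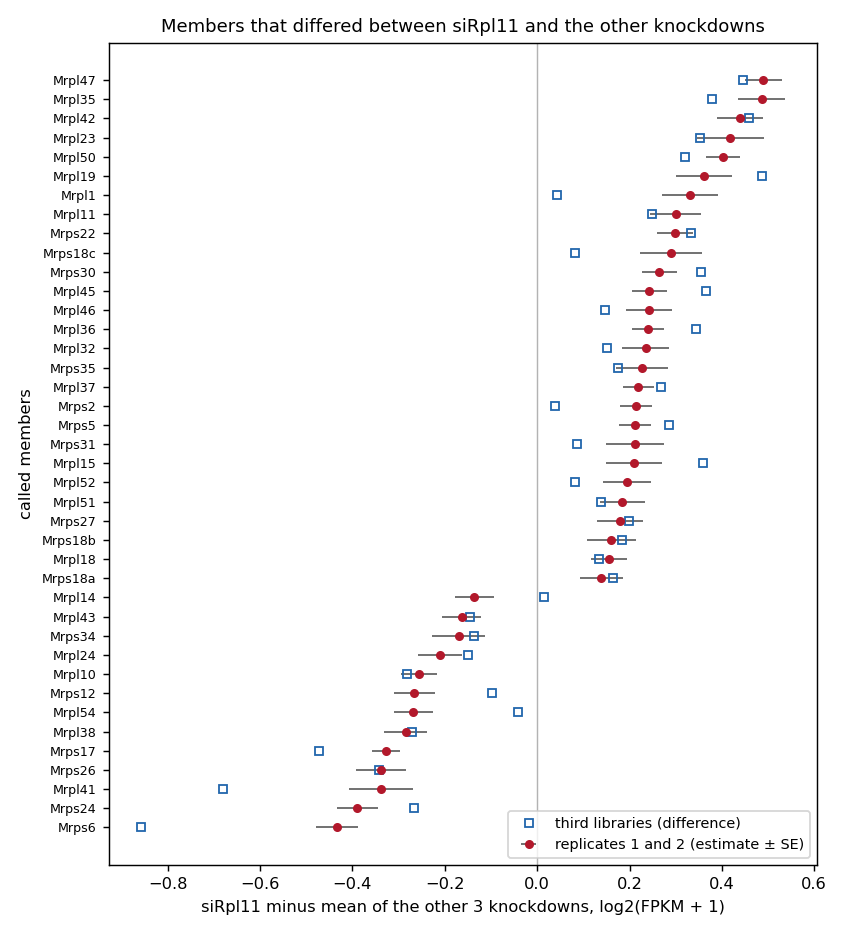
Difference of siRpl11 from the mean of siRpl14, siRpl18 and siRpl23 in log2(FPKM + 1) (x axis) for the 40 members called (rows); red circles with bars are estimates ± SE from replicates 1 and 2, and open squares the difference in the third libraries. Squares and circles lie on the same side of 0 in all rows but Mrpl14, and Mrps6 is at -0.43 and -0.86.

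A test among siRpl14, siRpl18 and siRpl23 alone called 2 members, Mrpl37 and Mrpl47, where 10.1% of all genes tested were called (limma's moderated F test), and 14 members had an unadjusted p under 0.05. Mrpl37 had 60.4 and 58.3 FPKM in siRpl11 cells, 49.7 and 50.1 in siRpl14 cells, 53.7 and 55.9 in siRpl18 cells and 47.2 and 49.1 in siRpl23 cells, against 46.4 and 47.4 in siNT cells. Mrpl37, a mitochondria-specific protein of the large subunit, was highest of these 3 in siRpl18 (adjusted p = 0.0423), and Mrpl47 was highest in siRpl23 (0.0486). Both lie close to the threshold. Shares of all genes at that unadjusted p, or called by this test under any alternative, were not counted. The member counts given for those therefore have no background. The count was 0 without siRpl11 replicate 1 or 2, siRpl14 replicate 1 or 2, siRpl18 replicate 1 or 2, or siRpl23 replicate 2 (10 to 22 members at an unadjusted p under 0.05), and 1 without siRpl23 replicate 1.

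Many of these genes start close to a gene on the opposite strand. A divergent start within 1000 bases was found for 26 of 69 members (37.7%), against 19.9% of genes tested, and for 23 members (33.3%, against 12.7%) the partner was itself tested. One such pair joins 2 members, Mrpl46 of the large and Mrps11 of the small subunit, whose starts are 42 bases apart. Mrpl46 had log2 fold changes of 0.47 in siRpl11, 0.10 in siRpl14, 0.34 in siRpl18 and 0.25 in siRpl23 cells, and Mrps11 of 0.31 in siRpl11, 0.23 in siRpl14, 0.33 in siRpl18 and 0.34 in siRpl23 cells. Over the 22 pairs with a member, both genes were called in the same direction in 7 and in opposite directions in 3 in siRpl11, in 4 and 4 in siRpl14, in 6 and 5 in siRpl18 and in 5 and 5 in siRpl23 cells (62.1%, 57.5%, 58.5% and 58.8% same among all divergent pairs). In siRpl11 against the other knockdowns, 8 pairs moved in the same direction and 0 in opposite ones (68.2% same among all pairs, no test). The 8 pairs joined Mrpl14 to Tmem63b, Mrpl18 to Tcp1, Mrpl32 to Psma2, Mrpl41 to Pnpla7, Mrpl47 to Ndufb5, Mrpl51 to Ncapd2, Mrps18b to Ppp1r10 and Mrps18c to Helq. Mrpl14, Mrpl18 and Mrpl47 also overlap an exon of their partner on the opposite strand. The counting strand is unknown, and the part of shared reads was not tested. The Mrpl41 call was lost with quantile normalization and median-ratio scaling, and Mrpl14 had the opposite sign in the third libraries. Tmem63b, an ion channel gene next to Mrpl14, had log2 fold changes of -0.21 in siRpl11, 0.79 in siRpl14, 0.71 in siRpl18 and 0.73 in siRpl23 cells where Mrpl14 fell in all 4, and Ppp1r10, a phosphatase regulator gene next to Mrps18b, had 1.29 in siRpl11, 0.79 in siRpl14, 1.21 in siRpl18 and 1.00 in siRpl23 cells.

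The other components of mitochondrial translation were read from lists of genes with other symbols, to be set against the shares of all genes called higher and lower, which were 27.3% and 43.6% in siRpl11, 33.3% and 29.5% in siRpl14, 32.8% and 34.7% in siRpl18 and 34.9% and 30.8% in siRpl23 cells. Of 7 further mitochondrial ribosomal proteins, 5 were in the table, and 4 rose and 1 fell in siRpl11, 2 and 1 in siRpl14, 2 and 1 in siRpl18, and 1 and 1 in siRpl23 cells. Dap3, a GTP-binding protein of the small subunit, was the one that fell, with log2 fold changes of -0.40 in siRpl11, -0.46 in siRpl14, -0.45 in siRpl18 and -0.39 in siRpl23 cells. Dap3 had 25.1 and 26.0 FPKM in siRpl11 cells, 23.3 and 25.5 in siRpl14 cells, 23.99 and 25.4 in siRpl18 cells and 24.7 and 26.9 in siRpl23 cells, against 33.1 and 34.9 in siNT cells. Gadd45gip1, a large-subunit protein, had log2 fold changes of 0.57 in siRpl11, 0.12 in siRpl14, 0.21 in siRpl18 and 0.11 in siRpl23 cells, of which the last (adjusted p = 0.0572) was not called. In the third libraries it had 58.3 FPKM in siRpl14, where the gene was called higher, and 59.9 FPKM in siNT cells. Aurkaip1, a small-subunit protein, had 0.19 in siRpl11, 0.31 in siRpl14, 0.31 in siRpl18 and 0.28 in siRpl23 cells, all called.

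Of 13 translation factors tested, 3 rose and 6 fell in siRpl11, 2 and 3 in siRpl14, 2 and 3 in siRpl18, and 2 and 1 in siRpl23 cells. In siRpl11 cells these are 23.1% and 46.2%, close to all genes. Pdf, the deformylase that trims new mitochondrial proteins, had log2 fold changes of 0.71 in siRpl11, 0.90 in siRpl14, 0.71 in siRpl18 and 0.89 in siRpl23 cells, all called. Taco1, an activator of cytochrome oxidase subunit translation, had log2 fold changes of -0.53 in siRpl11, -0.30 in siRpl14, -0.10 in siRpl18 and -0.09 in siRpl23 cells and was called lower in siRpl11 and siRpl14 cells. In siRpl14 cells the third libraries went the other way, with 10.3 FPKM in siRpl14 and 8.63 FPKM in siNT cells. Mtfmt, which formylates the initiator tRNA, had -0.30 in siRpl11, 0.04 in siRpl14, -0.23 in siRpl18 and -0.11 in siRpl23 cells and was called lower in siRpl11 and siRpl18 cells, where the third libraries had 4.01 FPKM in siRpl11, 4.95 in siRpl18 and 4.94 in siNT cells. Mtrf1l, a release factor, had -0.19 in siRpl11, -0.07 in siRpl14, -0.14 in siRpl18 and -0.31 in siRpl23 cells and was called lower in siRpl23 cells alone (adjusted p = 0.00793).

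Of 27 assembly factors and enzymes that modify mitochondrial ribosomal RNA, 11 rose and 12 fell in siRpl11, 9 and 4 in siRpl14, 9 and 7 in siRpl18, and 10 and 6 in siRpl23 cells. Ybey, an endoribonuclease, had log2 fold changes of 0.98 in siRpl11, 0.85 in siRpl14, 0.87 in siRpl18 and 0.70 in siRpl23 cells, all called. It had 1.62 and 1.64 FPKM in siNT cells, a level at which the log2(FPKM + 1) scale understates changes. The shares that rose, 33.3% in siRpl14 and siRpl18 and 37.0% in siRpl23 cells, and the share that fell in siRpl11 cells, 44.4%, were near those of all genes. The ribosomal RNA methyltransferase Mrm2 rose in each, with 0.69 in siRpl11, 0.48 in siRpl14, 0.50 in siRpl18 and 0.69 in siRpl23 cells, and Mrm1, another one, fell in each, with -0.47 in siRpl11, -0.50 in siRpl14, -0.55 in siRpl18 and -0.54 in siRpl23 cells. Mettl17, needed for small-subunit assembly, was called higher in each, with 0.26 in siRpl11, 0.56 in siRpl14, 0.35 in siRpl18 and 0.43 in siRpl23 cells, although the third libraries had 5.95 FPKM in siRpl11 and 7.25 FPKM in siNT cells.

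Of 22 genes for mitochondrial transcription and RNA processing, 10 rose and 4 fell in siRpl11, 8 and 5 in siRpl14, 6 and 5 in siRpl18, and 9 and 4 in siRpl23 cells. The siRpl11 shares were 45.5% and 18.2%, and the share that rose in siRpl14 cells, 36.4%, was near that of all genes. Polrmt, the mitochondrial RNA polymerase, had log2 fold changes of -0.74 in siRpl11, -0.27 in siRpl14, -0.43 in siRpl18 and -0.30 in siRpl23 cells, all called lower, with adjusted p values of 0.0491 in siRpl14 and 0.029 in siRpl23 cells. The third libraries had 8.78, 14.1, 11.7 and 13.2 FPKM in siRpl11, siRpl14, siRpl18 and siRpl23 cells, against 12.8 in siNT cells, so that siRpl14 and siRpl23 went the other way there. Slirp, which stabilises mitochondrial mRNA, rose in each, with 0.56 in siRpl11, 0.22 in siRpl14, 0.31 in siRpl18 and 0.22 in siRpl23 cells. Mterf1b, a homologue of a mitochondrial termination factor, was called lower in each, with -0.39 in siRpl11, -0.45 in siRpl14, -0.55 in siRpl18 and -0.39 in siRpl23 cells, although the third library of siRpl11 had 3.30 FPKM and siNT 2.70 FPKM. Grsf1, a protein of mitochondrial RNA granules, had -0.09 in siRpl11, 0.37 in siRpl14, 0.24 in siRpl18 and 0.38 in siRpl23 cells, all called but the first (adjusted p = 0.306).

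Among 10 tested regulators of nuclear genes for mitochondria, 5 rose and 3 fell in siRpl11, 5 and 3 in siRpl14, 3 and 3 in siRpl18, and 4 and 4 in siRpl23 cells. In siRpl18 cells these are 30% each, near the shares of all genes. Mycn, a Myc-family factor that binds the E-box, had a larger log2 fold change than any member in each knockdown. Mycn had 147 and 142 FPKM in siRpl11 cells, 81.5 and 81.2 in siRpl14 cells, 90.2 and 88.1 in siRpl18 cells and 85.2 and 86.2 in siRpl23 cells, against 42.1 and 39.7 in siNT cells, for log2 fold changes of 1.80 in siRpl11, 0.98 in siRpl14, 1.11 in siRpl18 and 1.05 in siRpl23 cells. Nrf1, the factor whose motif was searched above, rose in each, with log2 fold changes of 0.69 in siRpl11, 0.47 in siRpl14, 0.60 in siRpl18 and 0.49 in siRpl23 cells. Of the GABP genes, Gabpa was called lower in each, with -0.16 in siRpl11, -0.34 in siRpl14, -0.28 in siRpl18 and -0.25 in siRpl23 cells. Gabpb1 was called higher in each, with 0.49, 0.24, 0.41 and 0.43 in the same order. Yy1 had 0.43 in siRpl11, 0.31 in siRpl14, 0.11 in siRpl18 and 0.35 in siRpl23 cells, all called but the siRpl18 value. The part of these factors in the member values was not tested. Ppargc1b, a coactivator of mitochondrial genes, fell in each, with -0.58 in siRpl11, -0.63 in siRpl14, -0.69 in siRpl18 and -0.67 in siRpl23 cells. It had only 0.77 and 0.57 FPKM in siRpl14 and 1.73 and 1.43 in siNT cells, levels at which this scale understates changes.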

How the data were processed

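RNA was sequenced with a stranded kit for polyadenylated RNA from 15 libraries, 3 for each of 5 siRNA groups. For each gene the authors deposited an FPKM, and the submitters' processing notes name STAR, Cuffnorm and build mm9. Tool versions, annotation, counting strand and the options of Cuffnorm were not given in the sources used here. Replicates 1 and 2 of all groups came in one table (10 libraries) and the third libraries in another (5), normalized separately; 2 columns of the first that match no sample were not used. FPKM holds no read totals, so absolute depth is unknown.

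The 12249 genes that reached 1 FPKM in 2 or more of these 10 libraries were fitted on log2(FPKM + 1) in R 4.3.3 by limma 3.58.1 (trended eBayes after lmFit and contrasts.fit), with 1 term per group and 5 residual degrees of freedom. Calls used a Benjamini-Hochberg adjusted p under 0.05 over all genes. The third libraries gave values and signs, and entered only the alternative fit of all 15 libraries. The fit was tested on simulated data.

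Members and lists were chosen with earlier results of these data known. Named in the text are the 5 largest called changes in each direction per contrast, and up to 5 called by the F test. Also named are the 3 highest and 3 lowest members by level, and the 2 largest called changes per list and knockdown. Mrpl46, Mrps11, Gabpa, Gabpb1, Yy1 and the neighbouring genes were added after their values were seen. Shared 50-base stretches and overlaps were taken from the GENCODE M21 transcripts, by gene name. By these, 41 of 78 members shared none, 15 shared over 10% and Mrpl53 (100%, with Gm42688) and Mrpl23 over 50%, while 33 overlapped an exon of another gene on either strand.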

Additional observations from a re-analysis of the deposited data

How the results depend on the processing

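The family median stayed above 0 in each contrast, and most calls of the named members held, under the 17 alternatives run. These members were named for the largest called changes, so that their calls do not speak for those of the other members. Over 50 values of named members, 837 of 850 comparisons with an alternative kept direction and call, 13 kept the direction and lost the call, and 0 reversed. Among these values, the calls lost are those of Mrpl41, Mrps36, Mrps5 and Mrpl13 given above. Over all called members, median-ratio scaling kept 42 of 42 higher and 5 of 11 lower calls in siRpl11 cells. It kept 27 of 27 and 4 of 13 in siRpl11 against the other knockdowns. Quantile normalization kept 36 of 42 and 9 of 11 in siRpl11 cells, and 23 of 30 and 7 of 7 in siRpl23 cells. With quantile normalization, members that fell were 11 in siRpl14, 14 in siRpl18 and 14 in siRpl23 cells, against 6, 9 and 7 as reported, the medians were 0.0338, 0.0576 and 0.0339 in siRpl14, siRpl18 and siRpl23 cells and 0.0851 for siRpl11 against the other knockdowns, and the F test called 4. With median-ratio scaling, 5 members fell in siRpl11 cells with a median of 0.36, and siRpl11 against the other knockdowns had 54 higher and 4 lower with a median of 0.21. The summed Mrpl FPKM was then 3416 in siRpl11, 2733 in siRpl14 and 2786 in siRpl23 cells, and the summed Mrps FPKM 1657, 1407 and 1411. The F test called 1 member with a pseudocount of 0.1, 0 without the filter (13 at an unadjusted p under 0.05), 0 with only the 3 groups compared (14 at an unadjusted p under 0.05) and 5 with all 15 libraries. The causes were not tested.

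Leaving out each library in turn gave 35 to 44 higher and 10 to 12 lower in siRpl11 (median 0.13 to 0.20), 21 to 29 and 5 to 7 in siRpl14 (0.0530 to 0.10), 28 to 35 and 6 to 11 in siRpl18 (0.0717 to 0.15), 22 to 30 and 5 to 8 in siRpl23 (0.0527 to 0.13), 19 to 29 and 10 to 14 in siRpl11 against the others (0.02 to 0.05), and 0 to 2 in the F test. The siRpl14 median was 0.0530 without siRpl14 replicate 2, and the siRpl23 median 0.0527 without siNT replicate 1. A group left with 1 library is assumed to vary like the others.

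The deviations of same-numbered replicates correlated across genes at -0.0858 to 0.195 over the 10 pairs of groups, over 0.1 in 5, and summed Mrpl and Mrps FPKM were higher in replicate 2 than in replicate 1 in all 5 groups. The labels do not say what a number marks, so whether it pairs the libraries is not settled. With the replicate number as a block, members higher and lower were 46 and 15 in siRpl11, 31 and 9 in siRpl14, 37 and 9 in siRpl18, 32 and 8 in siRpl23 cells, and 30 and 14 for siRpl11 against the others, and the F test called 12. Calls over all 12249 genes rose as well, to 3537 and 5566 in siRpl11, 4350 and 3921 in siRpl14 and 4271 and 4505 in siRpl18 cells. In siRpl23 cells they were 4526 and 4028, and for siRpl11 against the others 2510 and 5717. With unknown depth, counting error could not be given, and 2 libraries per group limit the precision of each value.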
